A study of Mus musculus with 22 samples.

Results

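The Uchl family was followed in RNA-seq of mouse germinal vesicle (GV) oocytes, the full-grown oocytes arrested before meiotic resumption. Its members were chosen by symbol among the 52636 genes of the deposited count table and are the 4 genes Uchl1, Uchl3, Uchl4 and Uchl5. The family was chosen because Uchl4 rose in Dicer SOM/SOM oocytes of the single-end run and because Uchl3 is its near-identical copy, so the single-end values of the members are given as a description and without a test. The paired-end samples did not enter that choice by its wording, but they carry the same Dicer allele and their results were known as well, so the tests in that run measure a difference against the spread between samples and are not independent support.

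The study asked whether RNA interference (RNAi) and the piRNA pathway, which both act on retrotransposons, stand in for each other in mouse oocytes. The single-end run held wild type oocytes (n = 3), Dicer ΔMT/WT oocytes (n = 1), Dicer ΔMT/ΔMT oocytes (n = 4) and Dicer SOM/SOM oocytes (n = 3). The ΔMT allele lacks the retrotransposon-derived promoter of the short oocyte isoform of Dicer. The SOM allele lacks the introns in which that promoter lies and makes only the tagged full-length somatic Dicer, and the line goes back to a single modified embryonic stem cell clone. In the paired-end run the controls (n = 4) were heterozygous at both loci, with the alleles Mili DAH/WT and Dicer SOM/WT. The RNAi mutants (n = 2) had Mili DAH/WT with Dicer SOM/SOM, the piRNA mutant (n = 1) had Mili DAH/DAH with Dicer SOM/WT, and the double mutants (n = 4) were homozygous at both, Mili DAH/DAH with Dicer SOM/SOM. DAH is a point mutation in the catalytic site of MILI, the PIWI protein that makes piRNAs in oocytes. All groups of the paired-end run therefore carried at least a single copy of the SOM allele. The controls came from mice aged 36, 38, 10 and 17 weeks, the double mutants from mice aged 40, 35, 11 and 11 weeks, the RNAi mutants from mice aged 17 and 13 weeks and the piRNA mutant from a mouse aged 16 weeks. Ages of the single-end samples were not used here. Each sample was made from pooled oocytes, and the labels do not say whether the samples of a group came from separate animals, so the p-values measure the spread between these samples only.

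Ubiquitin carboxyl-terminal hydrolases are cysteine proteases that cut small adducts from the end of ubiquitin and so return free ubiquitin to the pool. UCHL1 is best known from neurons and is also an abundant protein of the mouse oocyte. UCHL3 also acts on the ubiquitin-like protein NEDD8. UCHL5 works at the proteasome, bound through ADRM1, and in the INO80 chromatin remodelling complex, where NFRKB binds it. Endogenous siRNAs of mouse oocytes are cut by Dicer from long double-stranded RNA, part of which pairs transcripts with those of their pseudogenes or copies.

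Uchl3 and Uchl4 are the pair that the results turn on, and their sequences set what the counts can resolve. In the GRCm38 build, Uchl3 (ENSMUSG00000022111.8) lies on chromosome 14 at 101653967 to 101696124 on the plus strand and has 9 exons. Uchl4 (ENSMUSG00000035337.3) is a single exon on chromosome 9 at 64235201 to 64236362 on the plus strand. It lies within an intron of Map2k1, a kinase gene on the minus strand, and shares 0 exon bases with it. Uchl1 (ENSMUSG00000029223.12) lies on chromosome 5 at 66676091 to 66687234 and Uchl5 (ENSMUSG00000018189.12) on chromosome 1 at 143777272 to 143807466, both on the plus strand. The coding sequence of Uchl4 has no internal stop and encodes 233 residues, against 230 residues for Uchl3. The encoded proteins are identical at 222 of 230 aligned residues (96.5%), and the coding sequences at 675 of 693 aligned bases (97.4%). The other members are more distant, since Uchl1 is 55.0% identical to Uchl3 in residues and Uchl5 is 33.0% identical to Uchl3.

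The clearest difference between the copies is an insertion of 9 bases in Uchl4 at the codon of the active-site cysteine, residue 95 in both encoded proteins. As aligned, it starts at coding base 285, the last base of that codon. Its exact place is set by the alignment, since it is a repeat. The spliced Uchl3 coding stretch lies within chr14:101666553-101666995, from which introns were removed, and the Uchl4 stretch is chr9:64235463-64235591. Both are read on the plus strand 5′ to 3′ from the reference transcripts of GENCODE M21 (GRCm38), and capitals mark the bases at which the copies differ.
Uchl3: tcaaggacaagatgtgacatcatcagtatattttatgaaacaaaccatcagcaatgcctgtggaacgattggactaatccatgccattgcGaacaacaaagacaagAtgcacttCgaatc
Uchl4: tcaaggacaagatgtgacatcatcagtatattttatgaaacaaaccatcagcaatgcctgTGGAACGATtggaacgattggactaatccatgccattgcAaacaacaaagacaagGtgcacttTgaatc
The inserted TGGAACGAT repeats the 9 bases that follow it and adds 3 residues without shifting the frame. Outside this block the coding sequences differ by 18 substituted bases.

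Long stretches without a difference limit the counting of this pair. The longest identical coding run has 145 bases, at coding positions 420 to 564 of Uchl4 (chr9:64235658-64235802). It is shown because a read within it has the same bases in both transcripts. In Uchl3 the run lies within chr14:101667062-101695163, from which introns were removed. A read across an exon junction therefore maps to Uchl3 only as a spliced read.
Uchl3 and Uchl4: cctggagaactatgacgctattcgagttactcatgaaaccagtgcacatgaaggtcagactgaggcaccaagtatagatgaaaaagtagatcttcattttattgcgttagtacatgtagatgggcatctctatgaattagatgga
Of the 50-base windows of the Uchl4 transcript, 292 of 1113 (26.2%) were also found in Uchl3 transcripts and in those of no other gene. Of its 75-base windows the share was 18%, or 196 of 1088. From the side of Uchl3, 34.2% of the 50-base windows and 23.6% of the 75-base windows were found in Uchl4. The single-end reads were 50 bases long and the paired-end reads 75 bases, and the deposited counts divide a read equally among the places it maps to. Most windows of both transcripts thus belong to a single gene, and the rest can pass reads between the copies. A window stands for a single read, while the reads of the paired-end run come in pairs. A mate outside a shared stretch can place its pair, so the 75-base share can overstate the sharing in that run.

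**Figure D1:**
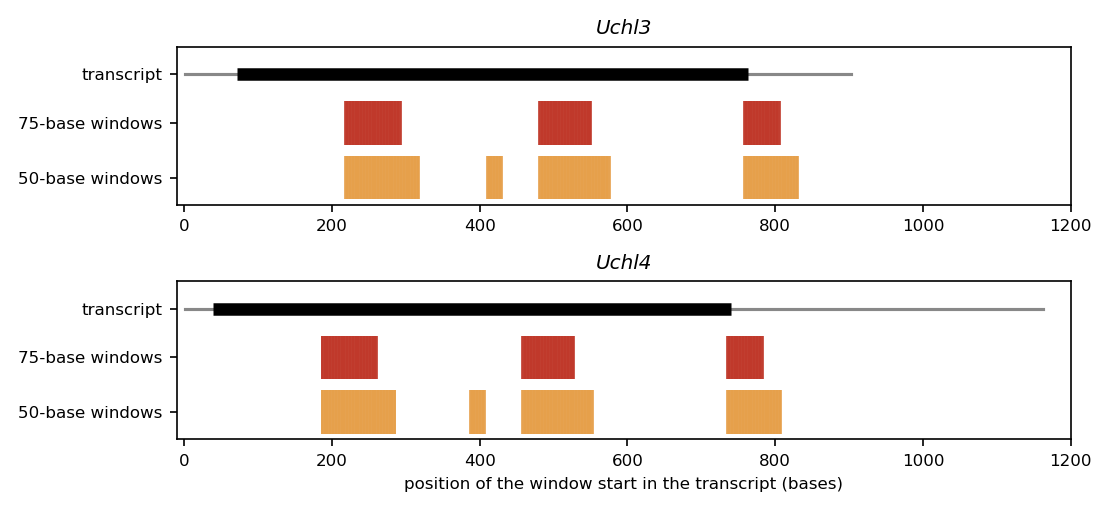
Windows shared between Uchl3 and Uchl4 along each transcript. The x axis gives the start of the window in bases, the thick black bar is the coding sequence, and coloured blocks are starts of windows of 50 bases (lower) or 75 bases (upper) that are identical in the other gene. The blocks cover 292 windows of 50 bases and 196 windows of 75 bases and leave most of each transcript free.

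Fractional counts mark reads that were divided among places or genes, but not which gene shared them. In double mutant 1, for example, Uchl4 had 3302.50 and Uchl3 561.00 estimated counts, so the fraction was not the same in both copies. The source of the fractions was not tested. The estimated count was whole, within 0.005, in 18 of 22 samples for Uchl5, which shares no window with another gene, and in 10 of 22 for Uchl4 and 9 of 22 for Uchl3. It was whole in 9 of 22 for Uchl1, of whose 50-base windows 16.2% lie in the antisense gene Uchl1os. Uchl1os shares 244 exon bases with Uchl1, and counting ignored strand, so reads of Uchl1 and Uchl1os cannot be told apart there. Other loci alike to the pair were nearly silent. The processed pseudogenes Gm12685 (chromosome 4, 99418498 to 99418711, minus strand) and Gm12686 (chromosome 4, 99418773 to 99419169, plus strand) lie side by side on opposite strands and match Uchl3 at 93.5% over 214 bases and at 93.2% over 192 bases. Their highest estimated counts in any of the 22 samples were 1.33 for Gm12685 and 1.67 for Gm12686.

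Total estimated counts per sample ran from 6468380 to 90713013 in the single-end run (median 60908103) and from 22928936 to 43540806 in the paired-end run (median 34830593), with the third Dicer SOM/SOM sample by far the shallowest. Values below are CPM, estimated counts per 1e6 counts of a sample, with TMM library sizes, which adjust for differences in RNA composition within a run, or RPKM, which is CPM per kilobase of exon. Dicer1 followed the labels, with 1014 ± 29.5 CPM in wild type (SD, n = 3), 49.4 ± 6.88 CPM in Dicer SOM/SOM (SD, n = 3), 639 ± 104 CPM in controls (SD, n = 4) and 57.7 ± 3.61 CPM in double mutants (SD, n = 4). Summed CPM of 10 oocyte markers lay between 11721 and 15910 in all samples. Those of 9 granulosa markers lay between 81.9 and 149 and were led by Nr5a2, while those of 4 cumulus markers reached at most 5.71 and those of 4 stroma and theca markers at most 2.49. The 8 blood and immune markers were led by Ms4a1 in each group. They summed to 28.8 to 33.6 CPM in Dicer SOM/SOM against 48.2 to 50 CPM in wild type and to 41.7 to 42 CPM in RNAi mutants against 47.4 to 66.6 CPM in controls, both without overlap, and to 28.7 to 61.8 CPM in double mutants. Their part in the results was not tested. Gm42418, which overlaps ribosomal RNA, split the paired-end samples into those between 296 and 548 CPM and those between 4071 and 5559 CPM, and controls and double mutants had 2 samples in each. Both RNAi mutants, at 4932 and 4655 CPM, were among the high samples and the piRNA mutant, at 296 CPM, among the low ones. These are bulk samples, so fewer cells of a type and less RNA per cell cannot be told apart.

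Uchl1 was by far the most abundant member. Per length it stood at 488 ± 77.1 RPKM in wild type oocytes (SD, n = 3), where Uchl3 had 22.9 ± 1.28 RPKM, Uchl5 had 16.5 ± 0.66 RPKM and Uchl4 had 6.44 ± 0.425 RPKM. Ranges of neighbours in this order did not overlap in wild type. In the controls of the other run the order of means was kept, with 433 ± 44 RPKM for Uchl1, 23.1 ± 4.87 RPKM for Uchl3, 19.7 ± 3.7 RPKM for Uchl5 and 5.72 ± 1.57 RPKM for Uchl4 (SD, n = 4), but there the ranges of Uchl3 and Uchl5 overlapped. Uchl1 ranked 54th of 23172 tested genes by RPKM in wild type, above 99.8% of them, while Uchl4 stood above 67.8%.

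Uchl4 differed most between genotypes. Its level in the single-end run was 7.97, 7.49 and 6.99 CPM in the wild type samples and 7.26 CPM in the Dicer ΔMT/WT sample. The Dicer ΔMT/ΔMT samples had 17, 15.8, 12.2 and 19.5 CPM, and the Dicer SOM/SOM samples 70.7, 72.3 and 50.6 CPM. The heterozygous sample lay within the wild type range, and the 3 replicated genotypes did not overlap. The fitted log2 fold change of the level was 1.11 (SE 0.17) from wild type to Dicer ΔMT/ΔMT and 3.12 (SE 0.19) from wild type to Dicer SOM/SOM, which corresponds to 2.16-fold and 8.71-fold. Between both mutants the log2 fold change was 2.01 (SE 0.17). Gm42418 moved as well, from 5208 to 5779 CPM in wild type to 12717, 4759 and 17273 CPM in Dicer SOM/SOM (log2 fold change 1.07, SE 0.35, adjusted p = 0.0391 in edgeR) with ranges that overlapped, and its part in the Uchl4 values was not tested. The 3 comparisons of Uchl4 share samples and chose the family, so nothing is read from them beyond their values.

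**Figure D2:**
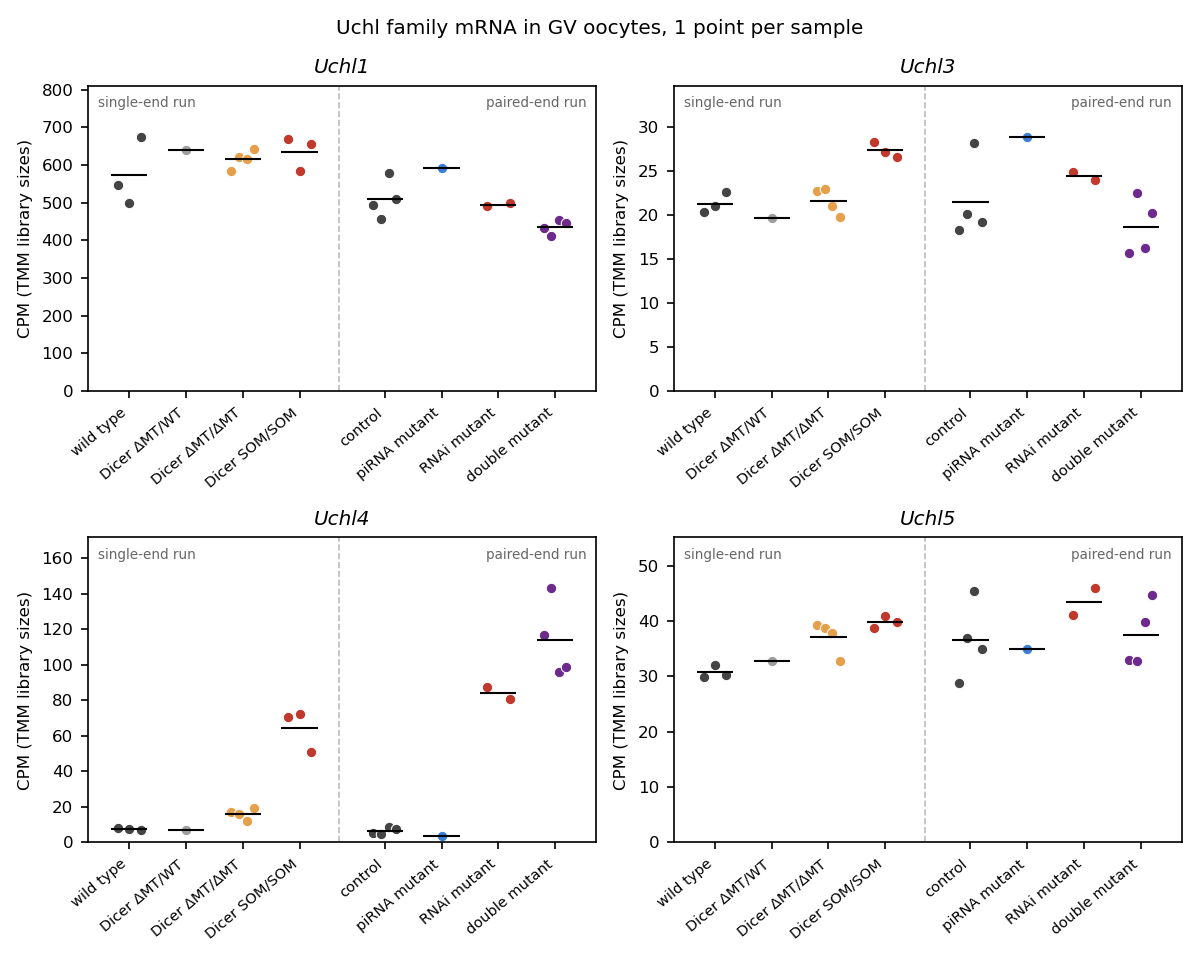
CPM of the 4 members in every sample, each panel from 0 on a linear axis. Points are samples, horizontal bars are group means, and a dashed line parts the single-end run (left) from the paired-end run (right). Uchl4 lies at 3.81 to 8.9 CPM in controls, wild type, Dicer ΔMT/WT and the piRNA mutant, and at 50.6 to 143 CPM in every sample homozygous for the SOM allele.

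The paired-end run measured Uchl4 in other oocytes with the same Dicer allele. The controls had 5.44, 4.91, 8.9 and 7.35 CPM. The RNAi mutants had 87.7 and 80.7 CPM, and the double mutants 117, 143, 95.8 and 98.8 CPM. Every sample homozygous for SOM lay above every control, and the double mutants lay above the RNAi mutants. The piRNA mutant, homozygous for the Mili mutation only, had 3.81 CPM, below all 4 controls, and with a single sample this difference has no replicate check. In edgeR's quasi-likelihood test Uchl4 rose 12.7-fold from controls to RNAi mutants (log2 fold change 3.66, SE 0.23, adjusted p = 1.81e-07) and 17.1-fold from controls to double mutants (log2 fold change 4.10, SE 0.21, adjusted p = 2.31e-08). Both comparisons use the same controls. Among the 21019 genes tested its log2 fold change ranked 119th in the RNAi mutants and 153rd in the double mutants. From RNAi mutants to double mutants the log2 fold change was 0.43 (SE 0.23, adjusted p = 1.0 in edgeR), which did not pass the test. Both RNAi mutants came from mice under 20 weeks, while the double mutants with 117 and 143 CPM came from older mice. With samples from mice under 20 weeks only, this log2 fold change was 0.21 (SE 0.19). The part of age in this comparison was not tested. Summed CPM of the cumulus markers lay between 3.62 and 5.71 in double mutants and between 0.794 and 3.49 in controls, with Ptx3 at 0 in both groups, and their part in the double mutants was not tested. In RNAi mutants these markers summed to 0.887 to 2.76 CPM.

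Of the 4 members, 1 was called higher in the RNAi mutants, where 6.98% of all tested genes were called higher and 3.8% lower. Likewise 1 of 4 was called higher in the double mutants, where 12.4% of genes were called higher and 8.85% lower. Between double and RNAi mutants edgeR called 0 of 4 members, where the shares of all genes were 0.328% for higher and 0.00476% for lower calls. The count there was also 0 at an unadjusted p below 0.05, and DESeq2 called 0.

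**Figure D3:**
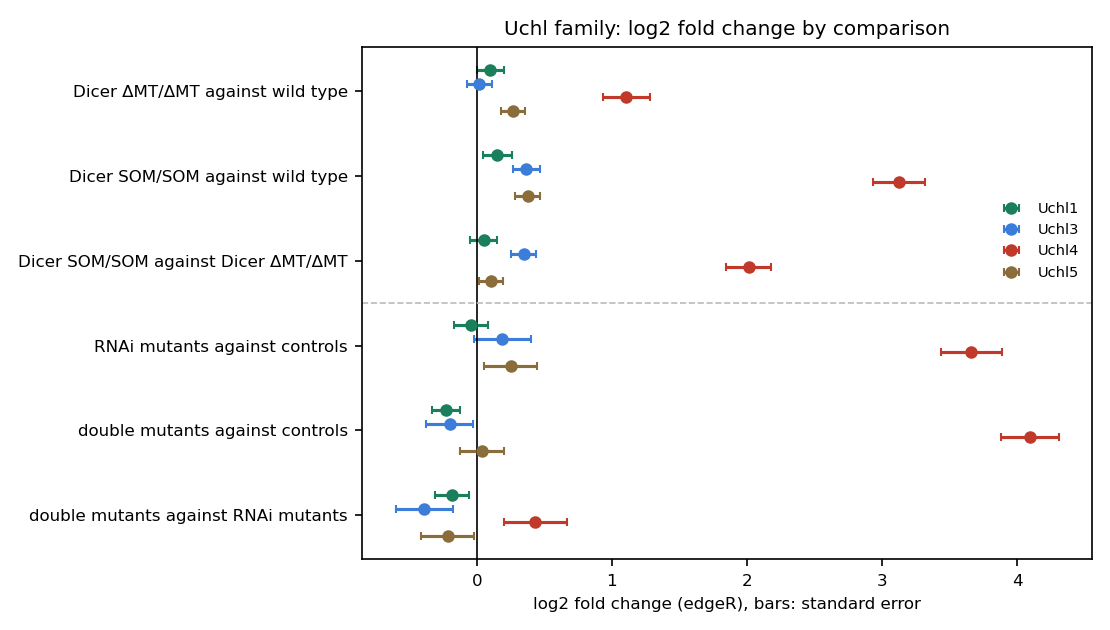
Log2 fold changes of the 4 members in the 6 comparisons, with standard errors from the edgeR fits. The dashed line parts the single-end comparisons (upper 3), which chose the family, from the paired-end comparisons (lower 3). Uchl4 lies between 1.11 and 4.10 in all comparisons but that of double with RNAi mutants, where it lies at 0.43, and the other members lie between -0.39 and 0.38.

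Age differed within both larger groups of the paired-end run, so the comparison was repeated by age after these values were seen. In mice of 35 weeks and over, Uchl4 was at 5.44 and 4.91 CPM in controls and at 117 and 143 CPM in double mutants, a 25.1-fold difference (log2 4.65, SE 0.21, adjusted p = 5.71e-07 in edgeR). In mice under 20 weeks it was at 8.9 and 7.35 CPM in controls and 95.8 and 98.8 CPM in double mutants, an 11.9-fold difference (log2 3.58, SE 0.20, adjusted p = 2.32e-06 in edgeR). The older controls were thus the lower ones and the older double mutants the higher ones. The difference between the age classes was 1.07 on the log2 scale (SE 0.26, unadjusted p = 0.00161, adjusted p = 0.54 over 21019 genes in edgeR) and did not pass the test. The comparison was also repeated by Gm42418, again after the values were seen. Samples with Gm42418 under 1000 CPM differed 17.5-fold (log2 4.13, SE 0.30) and those with more 16.7-fold (log2 4.06, SE 0.30) between double mutants and controls.

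Uchl3, the copy with introns, did not follow Uchl4 in the paired-end run. Controls had 18.3, 20.1, 28.2 and 19.2 CPM, RNAi mutants 24.9 and 24 CPM, the piRNA mutant 28.9 CPM, and double mutants 15.7, 22.5, 16.3 and 20.2 CPM. Controls and double mutants overlapped, as did controls and RNAi mutants. Its log2 fold change was 0.19 (SE 0.21, adjusted p = 0.66 in edgeR) in RNAi mutants and -0.20 (SE 0.17, adjusted p = 0.47 in edgeR) in double mutants against controls, and neither passed the test. All double mutants lay below both RNAi mutants, with a log2 fold change of -0.39 (SE 0.21) that did not pass the edgeR test. The single-end samples had 20.3, 21 and 22.6 CPM in wild type, 22.7, 23, 21 and 19.8 CPM in Dicer ΔMT/ΔMT and 28.3, 27.2 and 26.6 CPM in Dicer SOM/SOM. There the Dicer SOM/SOM samples lay above all others, with a log2 fold change of 0.37 (SE 0.10) against wild type, while Dicer ΔMT/ΔMT differed from wild type by 0.02 (SE 0.09). In the same samples Uchl4, which can share reads with Uchl3, was higher, and the part of shared reads in the Uchl3 values was not tested.

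**Figure D4:**
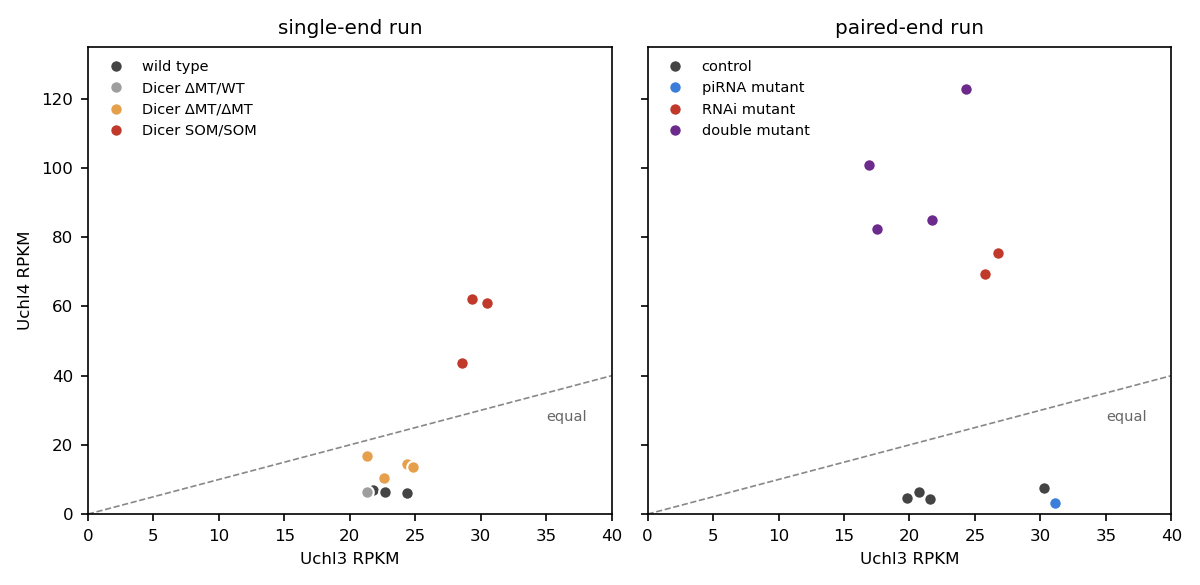
RPKM of Uchl4 (y axis) against Uchl3 (x axis) in each sample, single-end run on the left and paired-end run on the right, with a dashed line where both are equal. Samples homozygous for SOM lie above the line, with Uchl4 at 43.6 to 123 RPKM, and all others lie below it, with Uchl4 at 3.28 to 16.8 RPKM.

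The balance between the copies turned over. Uchl4 made up 19.2%, 16.4%, 20.2% and 23.4% of the summed Uchl3 and Uchl4 RPKM in the controls. In the double mutants it made up 85.7%, 83.6%, 82.5% and 79.7%. The means of 82.8% ± 2.5 and 19.8% ± 2.9 (SD, n = 4 each) differed by 63.1 percentage points, with p = 0.0286 in an exact two-sided permutation test, the smallest p that 4 against 4 samples allow. RNAi mutants had 73.8% and 72.9%, and the piRNA mutant 9.55%, below the controls. The single-end share was 22% ± 2.06 in wild type (SD, n = 3), 37.2% ± 5.16 in Dicer ΔMT/ΔMT (SD, n = 4) and 65% ± 4.09 in Dicer SOM/SOM (SD, n = 3). Within Dicer ΔMT/ΔMT Uchl3 was the more abundant copy in each sample, and within every group homozygous for SOM it was Uchl4.

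The summed level of the pair, which does not depend on how shared reads were divided except through the exon lengths, rose as well. It was 24.4, 25.8, 38 and 27 RPKM in the controls and 118, 148, 99.9 and 107 RPKM in the double mutants. The means of 28.8 ± 6.2 and 118 ± 21 RPKM (SD, n = 4 each) differed by 89.2 RPKM (p = 0.0286, exact two-sided permutation test). From controls to double mutants mean Uchl4 went from 5.72 to 97.9 RPKM and mean Uchl3 from 23.1 to 20.1 RPKM. The tests of the share and of the sum thus restate the Uchl4 rise and are no further support for it. RNAi mutants had 102 and 95.3 RPKM and the piRNA mutant 34.4 RPKM, the latter within the range of the controls. The single-end sum was 29.4 ± 0.87 RPKM in wild type, 37.2 ± 2.74 RPKM in Dicer ΔMT/ΔMT and 85 ± 11.1 RPKM in Dicer SOM/SOM.

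Uchl1 changed little on the scale of its level. It had 493, 456, 580 and 511 CPM in controls, 490 and 499 CPM in RNAi mutants, 591 CPM in the piRNA mutant and 433, 411, 453 and 447 CPM in double mutants. All 4 double mutants lay below all 4 controls, yet the log2 fold change of -0.23 (SE 0.10, unadjusted p = 0.0442, adjusted p = 0.139 in edgeR) did not pass the test. In RNAi mutants it was -0.05 (SE 0.13, adjusted p = 0.88 in edgeR). Single-end means were 574 ± 90.7 CPM in wild type (SD, n = 3), 616 ± 25 CPM in Dicer ΔMT/ΔMT (SD, n = 4) and 636 ± 44.9 CPM in Dicer SOM/SOM (SD, n = 3), and the ranges overlapped. Uchl1os, the antisense neighbour, had 13.9 ± 2.57 CPM in controls and 15.1 ± 1.23 CPM in double mutants (SD, n = 4 each), which did not pass the test (0.12 on the log2 scale, SE 0.16, adjusted p = 0.66 in edgeR). These Uchl1os values can hold reads of Uchl1, since counting ignored strand where the exons of Uchl1 and Uchl1os overlap.

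Uchl5, the proteasome-associated member, also did not pass the test in the paired-end run. Its level was 28.8, 37, 45.4 and 34.9 CPM in controls, 41.1 and 45.9 CPM in RNAi mutants, 35 CPM in the piRNA mutant and 33, 32.7, 39.8 and 44.7 CPM in double mutants, with groups that overlapped. The log2 fold change was 0.25 (SE 0.20, adjusted p = 0.49 in edgeR) in RNAi mutants and 0.04 (SE 0.16, adjusted p = 0.91 in edgeR) in double mutants. Single-end oocytes had 30.7 ± 1.23 CPM in wild type (SD, n = 3), 37.1 ± 2.95 CPM in Dicer ΔMT/ΔMT (SD, n = 4) and 39.8 ± 1.08 CPM in Dicer SOM/SOM (SD, n = 3). Both mutants there lay above wild type without overlap, by 0.27 (SE 0.09) and 0.38 (SE 0.09) on the log2 scale.

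Some genes around Uchl4 passed the test. Of all tested genes, 6.98% were called higher and 3.8% lower in RNAi mutants, and 12.4% and 8.85% in double mutants. Map2k1, whose intron holds Uchl4 on the other strand, was at 166 ± 17.6 CPM in controls (SD, n = 4), 246 ± 1.37 CPM in RNAi mutants (SD, n = 2), 259 ± 39 CPM in double mutants (SD, n = 4) and 229 CPM in the piRNA mutant. It rose by 0.56 on the log2 scale in RNAi mutants (SE 0.15, adjusted p = 0.0278 in edgeR) and by 0.64 in double mutants (SE 0.13, adjusted p = 0.00248 in edgeR). Counting ignored strand, so intronic reads of Map2k1 that fall on the Uchl4 exon cannot be told apart from Uchl4 reads. Dis3l, an exonuclease gene 70394 bases away, rose by 0.47 (SE 0.13, adjusted p = 0.0396 in edgeR) and by 0.37 (SE 0.11, adjusted p = 0.0283 in edgeR) in the same comparisons. Rpl4, Zwilch, Tipin, Lctl, Snapc5 and Gm48855 within 100 kb did not pass the test in either comparison. In Dicer SOM/SOM against wild type, Map2k1, Dis3l and Zwilch rose by 0.36, 0.39 and 0.35 on the log2 scale (adjusted p = 0.0347, 0.00365 and 0.0163 in edgeR), and Snapc5 fell by 0.89 (adjusted p = 0.00817 in edgeR). In Dicer ΔMT/ΔMT, Zwilch and Dis3l rose by 0.28 and 0.24 (adjusted p = 0.0486 and 0.0499 in edgeR). The noncoding Gm48855, 4406 bases from Uchl4, had at most 22 estimated counts in any sample. The small RNA genes in this interval were below the level needed for a test.

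The genes with a symbol were ranked by how alike their pattern of log2 CPM was to that of Uchl4. The rank used the lower of the correlations over the 11 single-end and the 11 paired-end samples. It is a description, since samples of a run share its batch and the single-end values chose the family. Uchl4 differed by Dicer genotype in each run, so any gene that differs in that way can reach a high correlation. Among 20025 genes the leading 5 were Gm47804, Gm16028, Gm10280, Sp140 and Fam107b, with a lower correlation of 0.989 for Gm47804 and 0.986 for Fam107b. All 5 were higher in Dicer SOM/SOM than in wild type, by 1.27 (Fam107b) to 4.79 (Gm16028) on the log2 scale. Sp140, a nuclear speckled-protein gene with close copies that can share its reads, differed by 2.73 on the log2 scale between Dicer SOM/SOM and wild type and by 2.98 between double mutants and controls. For the rest of the family the runs differed. The correlation with Uchl4 was 0.870 in the single-end and -0.285 in the paired-end run for Uchl3, 0.781 and 0.288 for Uchl5, and 0.315 and -0.675 for Uchl1. By the lower value Uchl5, Uchl3 and Uchl1 ranked 4581st, 10556th and 15634th.

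Genes that work with the family were then counted, from 8 lists that hold 91 genes for ubiquitin, NEDD8, partners of the family and the other deubiquitinases, of which 89 were tested. In RNAi mutants 3 of 89 were called higher (3.37%) and 2 lower (2.25%), against 6.98% and 3.8% of all genes. In double mutants 4 were called higher (4.49%) and 9 lower (10.1%), against 12.4% and 8.85% of all genes. The median log2 fold change of the lists was -0.04 and -0.08 in these comparisons, beside -0.03 and 0.00 for all genes (the latter -0.0025). Between double and RNAi mutants edgeR called 0 of 89 genes, with 1 gene below an unadjusted p of 0.05, and DESeq2 called 0. In the single-end run 2 of 89 were called higher and 6 lower in Dicer ΔMT/ΔMT, against 8.08% and 7.35% of all genes, and 7 were called higher and 15 lower in Dicer SOM/SOM, against 14.5% and 14.2%. Shares of higher calls thus lay below the background in all 4 comparisons with wild type or controls, and nothing particular to the lists is read from that.

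**Figure D5:**
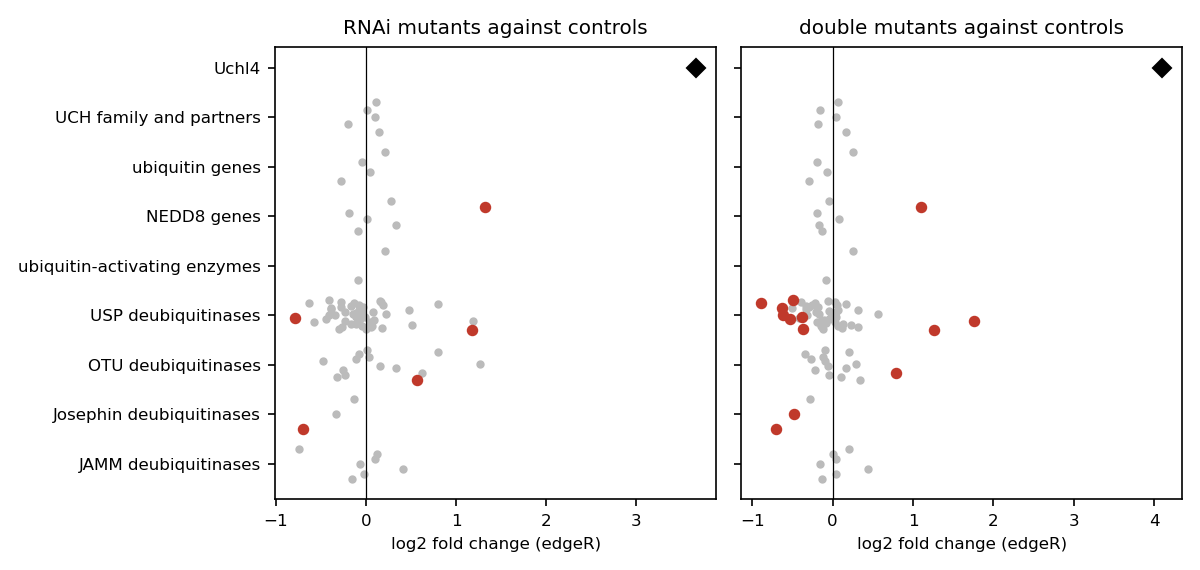
Log2 fold changes of the 89 tested genes of the 8 lists (dots, red where called at an adjusted p under 0.05) and of Uchl4 (black diamond), for RNAi mutants (left) and double mutants (right) against controls. Uchl4 at 3.66 and 4.10 lies to the right of every list gene, and 5 list genes are called on the left and 13 on the right.

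The partners of UCHL5 and of its relative BAP1 passed no test in the paired-end run. Adrm1, the proteasome receptor of UCHL5, was at 35.7 CPM in double mutants and 31.9 CPM in controls (log2 fold change 0.16, SE 0.12, adjusted p = 0.38 in edgeR). Nfrkb of the INO80 complex was at 269 and 257 CPM. Bap1 was at 67.5 and 75.3 CPM, and its cofactors Asxl1 and Asxl2 at 301 and 343 CPM and at 28.1 and 27.2 CPM. In Dicer ΔMT/ΔMT, Asxl1 and Asxl2 fell by 0.36 and 0.40 on the log2 scale against wild type. In Dicer SOM/SOM, Asxl2 fell by 0.44 (adjusted p = 0.014 in edgeR), while Asxl1 differed by -0.22 (adjusted p = 0.129 in edgeR) and did not pass the test.

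Adducts of ubiquitin are the substrates of the family, and UCHL3 also acts on NEDD8. The polyubiquitin gene Ubb was at 590 CPM in double mutants and 673 CPM in controls, and Rps27a, which encodes a ubiquitin fusion, at 6.5 and 8.0 CPM. Neither passed the edgeR test in either paired-end comparison with controls. Nedd8, whose product UCHL3 processes, was at 32.7 CPM in double mutants and 36.9 CPM in controls (log2 fold change -0.17, SE 0.18, adjusted p = 0.57 in edgeR).

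A few list genes moved in several comparisons. Cyld, a tumour suppressor deubiquitinase that restrains NF-kappaB signalling, rose from 11.2 ± 2.41 CPM in controls (SD, n = 4) to 25.4 ± 0.42 CPM in RNAi mutants (SD, n = 2) and 26.8 ± 2.01 CPM in double mutants (SD, n = 4), by 1.18 and by 1.26 on the log2 scale. In edgeR the adjusted p was 0.00117 for the RNAi mutants and 9.98e-05 for the double mutants. It also rose by 0.73 in Dicer ΔMT/ΔMT and by 1.69 in Dicer SOM/SOM against wild type. Ube2f, a NEDD8-conjugating enzyme, rose from 12.5 ± 1.42 to 31.1 ± 3.18 and 26.6 ± 3.14 CPM in RNAi and double mutants. Otub1 rose by 0.57 in RNAi mutants, and its 47 to 52 CPM in double mutants also lay above the 33.5 to 43.4 CPM of controls. Otud3 rose by 0.79 in double mutants and 0.68 in Dicer ΔMT/ΔMT. Atxn3, a Josephin deubiquitinase, fell by 0.70 in RNAi and by 0.70 in double mutants.

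Usp29 fell by 0.78 in RNAi mutants and by 0.74 in Dicer ΔMT/ΔMT. In double mutants it lay at 21.2 to 27.8 CPM, also below the 28.7 to 38.3 CPM of controls. In Dicer SOM/SOM it was at 24.9 CPM against 27.7 CPM in wild type (log2 -0.13, adjusted p = 0.628 in edgeR), above Dicer ΔMT/ΔMT by 0.61 (adjusted p = 0.0447 in edgeR). Usp45 and Usp33 fell by 0.64 and 0.62 in double mutants, Usp13 and Josd1 by 0.78 and 0.47 in Dicer ΔMT/ΔMT. Josd1 also fell by 0.61 in Dicer SOM/SOM and by 0.48 in double mutants (adjusted p = 0.00179 and 0.0139 in edgeR). In Dicer SOM/SOM against wild type, Usp35 and Usp25 rose by 1.40 and 1.37, while Usp51, Otud1 and Uba3 fell by 0.90, 0.68 and 0.65.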

How the data were processed

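RNA-seq of 22 GV oocyte samples was analysed, 11 single-end and 11 paired-end. The authors mapped reads with STAR 2.5.3a (submitters' processing notes) to GRCm38 and counted them with featureCounts on GENCODE M15, dividing reads that map to several places or genes and ignoring strand. The deposited values are estimated counts, raw and not normalized, and were rounded to whole numbers here. A deposited list of repeat names was not used.

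Each run was fitted on its own with edgeR 4.0.16 (R 4.3.3), with TMM, filterByExpr (minimum count 10, minimum total 15, over groups of at least 2 samples), quasi-likelihood tests of genotype and Benjamini-Hochberg adjustment at 0.05. The lone Dicer ΔMT/WT sample entered no fit. The piRNA mutant was in the fit, with no test of its own. log2 CPM used a prior count of 2. Single values were compared by exact two-sided permutation tests (scipy 1.17.1). Windows and alignments came from GENCODE M21 transcripts with BLAST 2.17.0 and Biopython 1.88. The fits were tested on simulated data. Replicates differed by more than sampling noise (25 pairs). Total counts per sample of 6468380 to 90713013 set the precision.

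The members and lists were chosen with earlier results of these data known. Named genes were the members, their partners and Ubb, Rps27a and Nedd8 (other genes of this rule are not reported here), the 3 largest rises and falls of list genes in each comparison with wild type or controls (adjusted p under 0.05, no overlap, at least 1 CPM), genes within 100 kb of Uchl4, overlapping or similar loci, and the 5 genes most alike in pattern. Alternatives were DESeq2 1.42.0, its size factors, no filter, fits of the compared groups only, the replicate number as a block, samples left out, younger animals and Gm42418 as a covariate.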

Additional observations from a re-analysis of the deposited data

Results flagged for a closer look

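In groups of 4 samples, a sample was marked when its gap to the nearest other sample, divided by the range of the group, passed Dixon's 95% critical value. Of 94 such groups of the members, of the share and sum of Uchl3 and Uchl4, and of the list genes described above and Map2k1, Dis3l and Uchl1os, 7 were marked, and chance alone marks about 1 in 20. They were Otud3 in the first older double mutant (38.4 CPM, the highest of a group that starts at 23.5 CPM), Usp13 in the second older control (9.23 CPM, lowest 5.16 CPM) and Usp45 in the third control (99.8 CPM, lowest 75.8 CPM). Nedd8 was marked in the second older control (26 CPM, highest 41 CPM), Nfrkb in the first double mutant (248 CPM, highest 277 CPM), and Bap1 and Ubb in the second double mutant (61.8 CPM, highest 70.2 CPM, and 621 CPM, lowest 578 CPM). No value of Uchl1, Uchl3, Uchl4 or Uchl5 was marked.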

How the results depend on the processing

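Uchl4 kept its rise and its call in both comparisons with controls under every alternative run, with log2 fold changes from 3.39 to 3.75 in RNAi mutants and from 3.58 to 4.65 in double mutants, and leaving out a sample gave 3.56 to 3.83 and 3.97 to 4.28. Against RNAi mutants the double mutants stayed without a call. The Uchl5 fold change of double mutants against controls, near 0, turned to -0.0048 with the replicate block, to -0.0035 in older animals and to -0.0929 in samples with Gm42418 under 1000 CPM, and ranged from -0.0563 to 0.1622 when samples were left out. That of Uchl1 in RNAi mutants ranged from -0.0835 to 0.0169. The cause was not tested.

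The share of Uchl4 and the summed level cannot pass 0.05 with fewer samples. Without a sample (exact permutation p = 0.0571, the smallest possible) their differences ranged from 61.9 to 64.3 percentage points and from 79.3 to 95.2 RPKM, and in younger animals only they were 59.3 percentage points and 70.9 RPKM (exact p = 0.333, the smallest possible).

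List genes called in Dicer ΔMT/ΔMT numbered 14 with DESeq2 and 4 without the filter against 8, and 3 to 7 with samples left out (3 without wild type sample 1 or 2, 5 without Dicer ΔMT/ΔMT sample 1, 2 or 4). In RNAi mutants 3 were called without the filter against 5, and 2 to 7 with samples left out (2 without either RNAi mutant, which leaves a lone sample assumed to vary like the other groups). In Dicer SOM/SOM the count was 14 to 23 (14 without wild type sample 2) against 22, and in double mutants 10 to 19 against 13.

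Same-numbered samples showed no pairing in the single-end run. There 0 of 9 pairs correlated above 0.1, and 3 of 9 samples correlated best with their own number. In the paired-end run 2 of 6 pairs did, and 5 of 9 samples correlated best with their own number. The 2 pairs were double mutant 2 with control 2 (0.179) and the first older double mutant with the first older control (0.134). Whether the numbers mark a pairing in that run was not settled, and the main fits did not use them. With the number as a block, list calls were 4 in Dicer ΔMT/ΔMT, 2 in RNAi mutants and 8 in double mutants, and no call of a member changed in the paired-end comparisons, where alone members were tested.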
